A study of Mus musculus with 6 samples.

Results

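The genes described here are 39 members of the calcium store, pump and NFAT signaling machinery. They were chosen by symbol from a fixed list of names, with earlier results of these data known. In all, 55367 genes were listed for each library (26402 of them with values). All 39 had values, and 38 had a mean over the 6 libraries of 1 or more on the deposited log2 scale and were tested. Camk4, with 1 recovered read over all libraries, was not. RNA was sequenced from 3 WT and 3 Piezo1 cKO libraries of leukemia cells from mouse bone marrow, labelled leukemia stem cells (LSCs) in the study, to compare leukemia with and without the mechanosensitive cation channel PIEZO1. The leukemia was made by transducing lineage-negative bone marrow cells with a retrovirus carrying MLL-AF9 and YFP and transplanting them into irradiated mice. The study also passed leukemia cells on to secondary and tertiary recipients, and LSCs were sorted from bone marrow. Which transplant generation the libraries came from was not given in the sources used here. The study's gate for LSCs was YFP+, Lin-, Sca-1-, c-Kit+, CD34+ and high for CD16/32, the Fc gamma receptors encoded by Fcgr3 and Fcgr2b. Piezo1 cKO donors carried Piezo1 fl/fl and Mx1-cre, WT donors were Piezo1 fl/fl littermates without Cre, and donors of both groups were given pIpC and were 8 to 10 weeks old on a C57BL/6J background. Mx1-cre is driven by an interferon-responsive promoter and is not restricted to blood cells. How many mice stand behind a library was not given in the sources used here, so p-values measure the spread between these libraries, which may be technical.

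As background, calcium signaling in blood cells often starts at a receptor that activates phospholipase C, whose product IP3 opens IP3 receptors in the endoplasmic reticulum. The emptied store is sensed by STIM proteins, which open ORAI channels in the plasma membrane, while SERCA pumps refill the store and plasma membrane pumps export calcium. Calcium bound to calmodulin then activates the phosphatase calcineurin, which sends NFAT transcription factors to the nucleus, and the CaM kinases. The second product of phospholipase C, diacylglycerol, activates protein kinase C.

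Deposited values were regularized log2 values, which pull each gene towards its mean and so shrink differences, the more so where reads are few. They could be turned back into whole reads, 14112106 to 15483588 per library, and reads divided by a size factor for each library are called normalized reads below. Piezo1 itself had 101, 92.8 and 109 normalized reads in WT replicates 1 to 3 and 36.6, 56.5 and 45.8 in Piezo1 cKO replicates 1 to 3, a log2 fold change of -0.29 (SE 0.040, adjusted p = 5.8e-06, limma) on the deposited scale. Every Piezo1 cKO library was below every WT library, with 45.9% of the WT reads, and 24.6% of the Piezo1 exon length overlaps Ctu2. Of the 8 progenitor markers, Kit, Cd34 and Flt3 were higher in Piezo1 cKO LSCs, Mpo, Fcgr2b and Meis1 were lower, and Hoxa9 and Fcgr3 did not pass the test. The 8 summed to 299101 to 315858 normalized reads in WT and 176265 to 183366 in Piezo1 cKO libraries, a sum in which abundant genes weigh most. The products of Kit, Cd34, Fcgr3 and Fcgr2b were used to sort the cells.

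Markers of other cells moved as well. Mast cell and basophil markers were higher for 5 of 6 genes, with summed normalized reads of 1999 to 2107 in WT and 7682 to 7907 in Piezo1 cKO libraries. Neutrophil markers were lower for 5 of 7 and higher for 1, with sums of 2509 to 2532 against 909 to 956. Dendritic cell markers were higher for all 4 tested of 5 (5271 to 5523 against 11577 to 12201), and B cell markers for 3 tested of 6 (12202 to 12561 against 22313 to 22711), with nearly all of the sum from Ighm and Cd79b. T cell markers summed to 61.6 to 70.6 reads in WT and 80.9 to 125 in Piezo1 cKO libraries, with Cd8a at 0 and Cd3e at 1 read in all libraries together. NK cell markers, almost wholly Nkg7, were higher for 2 and lower for 1 of 3 tested, with sums of 3991 to 4174 in WT and 2477 to 2529 in Piezo1 cKO libraries. Erythroid markers were lower for 2 of 5 tested (128 to 149 against 41.7 to 50.1). Megakaryocyte markers were higher for 2 and lower for 3 of 5 (273 to 324 against 267 to 302), and macrophage markers were higher for 2 of 5 tested (5874 to 6184 against 6759 to 6950), with C1qa at 0. The part of these cells in the calcium results was not tested, and in bulk RNA a change in the share of cells that express a gene and a change of RNA per cell cannot be told apart.

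Of the 38 members tested, 26 passed an adjusted p under 0.05, or 68.4% beside 63.0% of all 16746 genes tested. Of these, 12 were higher in Piezo1 cKO LSCs, a direction that 31.6% of all genes took, and 14 were lower, as 31.4% of all genes were. These shares were near the background. The same shares of all genes stand beside the counts for each group or list above and below. With libraries centred on their median, 14 members were higher and 13 lower, beside 6450 higher and 4214 lower of all genes. The median log2 fold change of the members was -0.03 on the deposited scale, against 0.00 over all genes, and their median absolute change was 0.15 against 0.09. On recovered reads the order was the other way, with 0.24 for the members and 0.44 for all genes. One member, Stim2, also passed an absolute log2 fold change over 1 on the deposited scale, which 0.818% of all genes did, 0.561% in the lower direction. On recovered reads 7 members did, or 18.4% beside 24.9% of all genes. Stim2, Orai1, Ppp3cc and Rcan1 were lower, as 12.2% of all genes were, and Itpr2, Camk1d and Nfatc2 were higher, as 12.7% of all genes were. In 27 of the 38 members the groups did not overlap on the deposited scale, as in 66.6% of all genes tested.

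**Figure D1:**
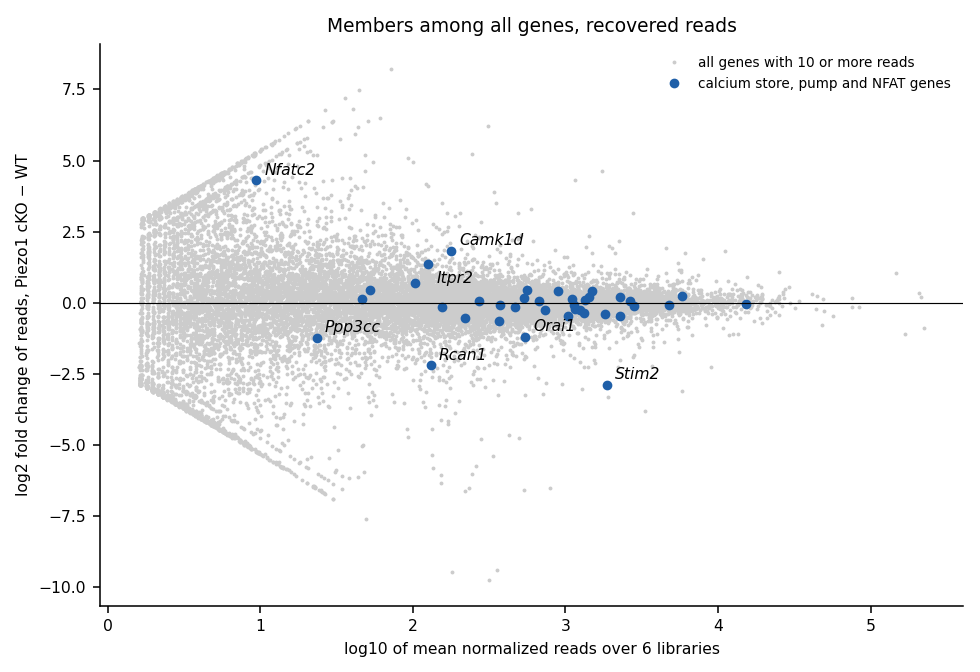
Log2 fold change of recovered reads (Piezo1 cKO minus WT) against the log10 of the mean normalized reads, for all 17352 genes with at least 10 reads (grey) and the 38 members tested (blue). Most members sit close to 0, while Stim2 and Rcan1 lie lowest and Nfatc2, with few reads, lies highest.

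On the deposited scale, the largest change of a member was in store-operated entry. Stim2, the STIM sensor that responds to small losses of store calcium, had 3355, 3276 and 3305 normalized reads in the WT libraries and 436, 440 and 451 in the Piezo1 cKO libraries. The 3 Piezo1 cKO libraries lay close together and far below WT, a 7.49-fold lower level. On the deposited scale Stim2 stood at 11.32 ± 0.013 in WT and 9.34 ± 0.015 in Piezo1 cKO LSCs (SD, n = 3). Its log2 fold change of -1.98 (95% interval -2.04 to -1.92, adjusted p = 6.76e-20, limma) ranked 13 from the bottom among the 16746 genes. Stim1, the main sensor in most blood cells, had 1314, 1243 and 1340 reads in WT and 1414, 1383 and 1328 in Piezo1 cKO libraries. These overlapped, and the log2 fold change was 0.06 (95% interval -0.01 to 0.12, adjusted p = 0.132, limma). Its adjusted p was 0.0394 when libraries were centred on their median.

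Orai1, the pore subunit of the store-operated channel, moved in the same direction as Stim2. It had 749, 772 and 757 normalized reads in WT and 336, 335 and 323 in Piezo1 cKO libraries, with no overlap, a 2.29-fold lower level and a deposited log2 fold change of -0.71 (95% interval -0.78 to -0.64, adjusted p = 2.01e-12, limma). Its homolog Orai3 was higher, from 760, 789 and 735 to 1043, 1081 and 947 reads (log2 fold change 0.28, adjusted p = 3.26e-06, limma). Orai2 had 458, 555 and 501 reads in WT and 559, 581 and 538 in Piezo1 cKO libraries, which overlapped (adjusted p = 0.0619, limma). Orai2 passed the test, as higher, in 6 of the 14 alternatives, with adjusted p from 0.016 without WT replicate 2 to 0.0489.

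Because genes of a family differ in exon length, levels within a family were compared as reads per kb of exon. Stim1 made up 16.3% ± 0.45 of STIM reads per kb in WT and 60.6% ± 1.19 in Piezo1 cKO LSCs (SD, n = 3), and Stim2 the rest. The STIM total went from 770 ± 11.4 to 219 ± 2.71 normalized reads per kb. Lengths of the longest transcripts in place of all exons put Stim1 at 30.7% and 77.9%, and the STIM total at 969 ± 17.5 and 405 ± 8.47. The shares and the total thus depend on the length used. Stim1 was above Stim2 only in Piezo1 cKO LSCs with either length. Within ORAI, Orai1 went from 43.0% ± 0.72 to 20.2% ± 0.68, Orai3 from 46.2% ± 0.74 to 66.9% ± 0.90 and Orai2 from 10.8% ± 0.76 to 12.9% ± 0.27. The order of Orai1 and Orai3 in WT turned with longest transcripts (45.7% and 40.1%), while Orai3 led in Piezo1 cKO LSCs with either length. The ORAI total was 770 ± 23.2 reads per kb in WT and 715 ± 38.7 in Piezo1 cKO LSCs. Each of these 5 shares was separate between the groups, with the smallest p that a two-sided exact permutation test of 3 libraries against 3 can give, 0.1 (adjusted p = 0.168 over 37 shares).

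**Figure D2:**
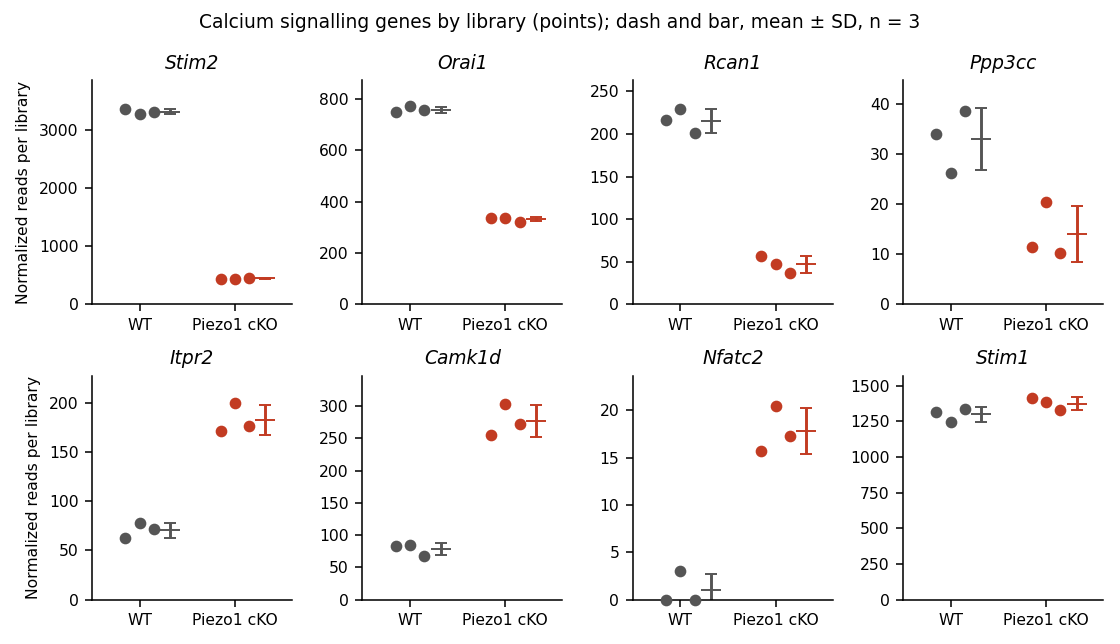
Normalized reads of 8 members in each library, 3 WT (grey points) and 3 Piezo1 cKO (red points), with the mean and SD beside them; each panel has its own axis from 0. Stim2, Orai1, Rcan1 and Ppp3cc lie lower and Itpr2, Camk1d and Nfatc2 higher in every Piezo1 cKO library, and Stim1 overlaps.

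The RefSeq promoters of Stim2, Orai1 and Rcan1, the 3 members with the lowest log2 fold changes on the deposited scale, are shown because NFAT is known to bind near a GGAAA core. Each sequence is the 250 bases before a start site on GRCm38.p6, in the gene's direction, with GGAAA and its reverse complement TTTCC in capitals. The Stim2 promoter (chr5:53998273-53998522, plus strand) and the Orai1 promoter (chr5:123014824-123015073, plus strand) held neither.
Stim2: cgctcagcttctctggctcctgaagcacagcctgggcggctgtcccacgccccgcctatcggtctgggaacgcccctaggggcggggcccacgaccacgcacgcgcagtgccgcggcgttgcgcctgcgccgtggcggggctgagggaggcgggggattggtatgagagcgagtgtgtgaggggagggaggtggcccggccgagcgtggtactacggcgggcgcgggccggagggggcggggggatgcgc
Orai1: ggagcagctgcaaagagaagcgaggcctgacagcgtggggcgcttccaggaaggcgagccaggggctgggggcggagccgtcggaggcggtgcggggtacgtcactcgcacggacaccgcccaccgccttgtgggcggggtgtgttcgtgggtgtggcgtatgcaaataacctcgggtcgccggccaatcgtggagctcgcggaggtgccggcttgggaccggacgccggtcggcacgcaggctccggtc
Rcan1, which encodes an inhibitor of calcineurin, is the textbook NFAT-induced gene, from a start site inside the gene. The window of that internal start (chr16:92400079-92400328, minus strand) held 3 matches, and the window of the upstream start (chr16:92466170-92466419, minus strand) held none.
Rcan1 internal: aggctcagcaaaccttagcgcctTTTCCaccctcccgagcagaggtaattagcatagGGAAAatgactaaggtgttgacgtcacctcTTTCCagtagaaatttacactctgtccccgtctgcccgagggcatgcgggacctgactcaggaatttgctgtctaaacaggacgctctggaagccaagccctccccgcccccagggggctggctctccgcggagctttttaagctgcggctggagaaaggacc
Rcan1 upstream: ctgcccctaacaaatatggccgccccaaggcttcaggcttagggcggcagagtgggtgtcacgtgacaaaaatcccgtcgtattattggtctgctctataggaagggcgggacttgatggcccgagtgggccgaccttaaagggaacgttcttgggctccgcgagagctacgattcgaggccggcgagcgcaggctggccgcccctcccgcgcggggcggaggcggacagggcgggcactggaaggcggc
The core is short, and 55.6% of all 32851 promoter windows of this length held it on either strand. Windows were at hand for 31 of the 39 members, 39 windows in all, of which 17 (43.6%) held it. With a T before the core, TGGAAA or its reverse complement TTTCCA, 18.6% of all windows and 6 of the 39 had a match, 2 of these matches in the internal Rcan1 window. A match describes letters only and was not measured as a bound site.

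Of the 5 genes of calcineurin and its inhibitor, 4 were lower, where 31.4% of all genes were, and none was higher. The groups did not overlap in 3 of them. Rcan1 had 216, 229 and 201 normalized reads in WT and 56.4, 47.8 and 36.6 in Piezo1 cKO libraries. All 3 Piezo1 cKO libraries were far below WT, a 4.59-fold lower level, with a deposited log2 fold change of -0.75 (95% interval -0.84 to -0.66, adjusted p = 2.62e-11, limma). Reads were counted per gene, so the transcripts from the internal and the upstream start were not told apart. Ppp3cc, a catalytic subunit that was scarce here, had 34.0, 26.2 and 38.5 reads in WT and 11.5, 20.5 and 10.2 in Piezo1 cKO libraries, without overlap (deposited log2 fold change -0.13, adjusted p = 0.00159, and -1.24 on recovered reads, adjusted p = 0.00239, limma). The main catalytic gene Ppp3ca held 90.9% of the reads per kb of the catalytic subunits in WT and 92.5% in Piezo1 cKO LSCs. Its level differed little, with a log2 fold change of -0.09 (adjusted p = 0.0209, limma) that lost its call in 7 alternatives, among them the fits without WT replicate 1 or 3 and without Piezo1 cKO replicate 2 or 3 (adjusted p = 0.117, 0.086, 0.115 and 0.129). The regulatory subunit Ppp3r1 was lower (-0.16, adjusted p = 0.000145, limma), with 14.3% of its exon length shared with Wdr92, and Ppp3cb did not pass (adjusted p = 0.224, limma).

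Among the NFAT genes, the 2 abundant members differed little. Nfatc1 had 753, 815 and 805 normalized reads in WT and 627, 680 and 703 in Piezo1 cKO libraries, lower in every library (log2 fold change -0.15, adjusted p = 0.00142, limma). Nfatc3 did not pass, at -0.08 (adjusted p = 0.08, and 0.0473 without WT replicate 2, limma). Nfatc2, best known as an NFAT of T cells and mast cells, had 0, 3.03 and 0 normalized reads in WT and 15.7, 20.5 and 17.3 in Piezo1 cKO libraries. It was thus close to undetected in WT LSCs and low in Piezo1 cKO LSCs, an 18.2-fold higher level with a counting interval of 5.91 to 91.2, and a deposited log2 fold change of 0.13 (adjusted p = 1.46e-05, limma). It made up 1.31% of NFATc reads per kb in Piezo1 cKO LSCs, against 69.6% for Nfatc1 and 29.1% for Nfatc3. The mast cell and T cell markers given above stand beside this value, and their part in it was not tested.

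The 20 genes known to be induced by calcineurin and NFAT, mostly from T cells and osteoclasts, did not move one way. Of 11 tested, 3 were higher and 3 lower, or 54.5% called beside 63.0% of all genes, of which 31.6% were higher and 31.4% lower. Of the 20, 6 were listed at 0 in all libraries, Ifng, Il3, Csf2, Cd40lg, Ctla4 and Ctsk. The largest change on the deposited scale was in Itgb3, an integrin subunit, with 139, 138 and 110 normalized reads in WT and 356, 369 and 387 in Piezo1 cKO libraries (deposited log2 fold change 0.72, adjusted p = 4.37e-11, limma). Cd69, an early activation antigen, was higher by 0.21 (adjusted p = 7.62e-06, limma), and Tnf, the inflammatory cytokine, went from 57.2, 46.4 and 56.8 to 30.3, 19.5 and 27.5 reads (-0.17, adjusted p = 0.000308, limma). Il2ra, the alpha chain of the interleukin-2 receptor, was chosen for mention after its values were seen. It had 12.6, 20.2 and 13.5 reads in WT and 0 in all 3 Piezo1 cKO libraries, at least 15.2-fold lower against a floor of 3 reads over the group (adjusted p = 2.63e-05, limma). The median deposited log2 fold change of the 11 was -0.01, against 0.00 over all genes.

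The 3 store release members, the IP3 receptors, were higher (2 genes, beside 31.6% of all genes) or did not pass the test. Itpr2 had 62.1, 77.7 and 71.2 normalized reads in WT and 171, 200 and 176 in Piezo1 cKO libraries. The groups were well apart, with a 2.59-fold higher level and a deposited log2 fold change of 0.48 (95% interval 0.40 to 0.57, adjusted p = 8.89e-09, limma). Itpr3 was higher by 0.10 (adjusted p = 0.0213, limma), a call that was lost without any 1 of 3 libraries, WT replicate 1, WT replicate 2 or Piezo1 cKO replicate 3 (adjusted p = 0.0593, 0.056 and 0.0571). Itpr1, the main IP3 receptor gene here, overlapped between the groups (log2 fold change 0.04, adjusted p = 0.432, limma). Its share of IP3 receptor reads per kb was 78.8% ± 1.3 in WT and 66.0% ± 2.7 in Piezo1 cKO LSCs, while that of Itpr2 was 10.5% ± 0.90 and 22% ± 2.6 (SD, n = 3), both without overlap (exact permutation p = 0.1, adjusted p = 0.168). Of 6 other store release genes tested, 1 was higher and 3 lower. Ryr1, a ryanodine receptor, rose by 0.21 (adjusted p = 0.000186), and the lysosomal channel genes Tpcn1 and Tpcn2 had log2 fold changes of -0.25 (adjusted p = 1.66e-05) and -0.10 (adjusted p = 0.032, limma).

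**Figure D3:**
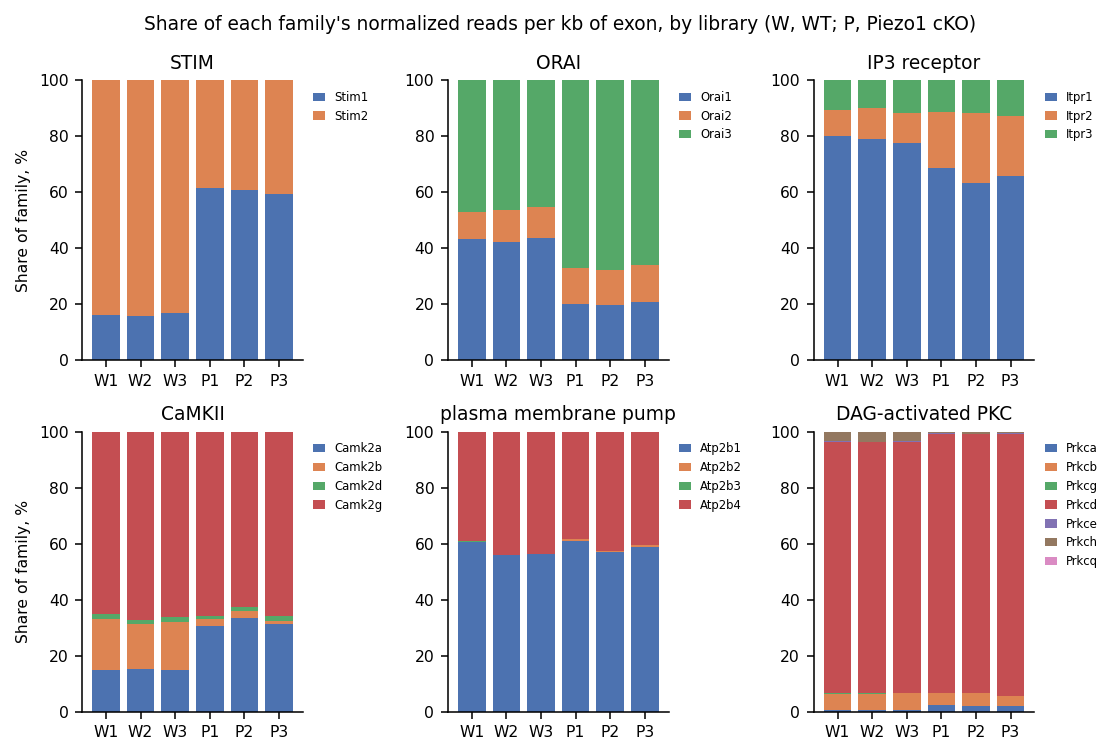
Share of each gene in the normalized reads per kb of exon of its family (y axis, percent), for 6 families (DAG is diacylglycerol) and the 6 libraries (W1 to W3, WT; P1 to P3, Piezo1 cKO). Stim1 and Orai3 take larger shares in all 3 Piezo1 cKO libraries, Camk2b shrinks beside Camk2a, and Atp2b1 and Atp2b4 keep similar shares.

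The 5 member pumps that clear calcium were lower (3 genes, beside 31.4% of all genes) or did not pass the test. Of the plasma membrane pumps, Atp2b1 had 2253, 1889 and 2044 normalized reads in WT and 1653, 1505 and 1588 in Piezo1 cKO libraries (log2 fold change -0.26, adjusted p = 1.09e-05, limma), and Atp2b4 had 1171, 1202 and 1270 against 839, 911 and 882 (-0.31, adjusted p = 2.68e-07, limma). Both were lower in every Piezo1 cKO library. The total of the plasma membrane pump family went from 235 ± 11.2 to 176 ± 2.30 normalized reads per kb (SD, n = 3), while the shares of Atp2b1 (57.7% ± 2.65 and 58.9% ± 2.02) and Atp2b4 stayed within the replicate spread (exact permutation p = 0.5 for each). Atp2c1, the secretory pathway pump of the Golgi, was lower by a smaller amount (-0.15, adjusted p = 0.00101, limma), and 18.9% of its exon length overlaps the antisense gene Aste1. The SERCA pumps Atp2a2 and Atp2a3 overlapped between groups, with log2 fold changes of -0.05 each (95% intervals -0.13 to 0.04 and -0.13 to 0.02, adjusted p = 0.306 and 0.209, limma). Of the other pumps and exchangers, 2 of 3 tested were higher. Slc8a1, the sodium-calcium exchanger NCX1, had 4.85, 4.04 and 4.81 reads in WT and 32.4, 28.3 and 34.6 in Piezo1 cKO libraries (adjusted p = 2.2e-06, limma), and Atp2b2, a plasma membrane pump best known from nerve cells, had 2 reads in all WT libraries together and 31 in the Piezo1 cKO libraries (adjusted p = 0.000512, limma). The share of Atp2b2 in its family was 0.0225% in WT and 0.472% in Piezo1 cKO LSCs, without overlap.

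The mitochondrial uniporter genes moved in both directions. Mcu, the pore, had 2700, 2676 and 2567 normalized reads in WT and 1884, 1917 and 1874 in Piezo1 cKO libraries, a separate and lower level (log2 fold change -0.34, adjusted p = 4.41e-09, limma). The gatekeeper Micu2 and the essential regulator Smdt1 were higher by 0.14 and 0.15 (adjusted p = 0.00208 and 0.00178, limma), and Smdt1 shares 16.6% of its exon length with Pheta2. In the list of other mitochondrial calcium genes, 3 were higher and 3 lower of 7 tested.

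Calmodulin genes, which encode the same protein, were the most abundant members per kb of exon. Calm2 had about the same level in both groups, with 15979, 15156 and 15314 normalized reads in WT and 15954, 14944 and 14646 in Piezo1 cKO libraries (log2 fold change -0.02, adjusted p = 0.422, and 0.0421 without Piezo1 cKO replicate 1, limma). Calm3 was higher, from 5196, 5563 and 5284 to 5768, 6445 and 6484 (0.16, adjusted p = 0.000166, limma). Among 14 tested genes of the list of other calmodulin, calcineurin and NFAT genes, 6 were higher and 3 lower. Chp1, a calcineurin B homolog that can inhibit the phosphatase, had 156, 130 and 158 reads in WT and 319, 318 and 290 in Piezo1 cKO libraries (0.49, adjusted p = 7.53e-09, limma). Cabin1, another calcineurin-binding inhibitor, was higher by 0.25 (adjusted p = 1.55e-06), and Nfatc2ip, an NFAT-interacting protein, went from 120, 101 and 127 to 59.5, 55.6 and 47.8 reads (-0.31, adjusted p = 2.67e-06, limma).

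**Figure D4:**
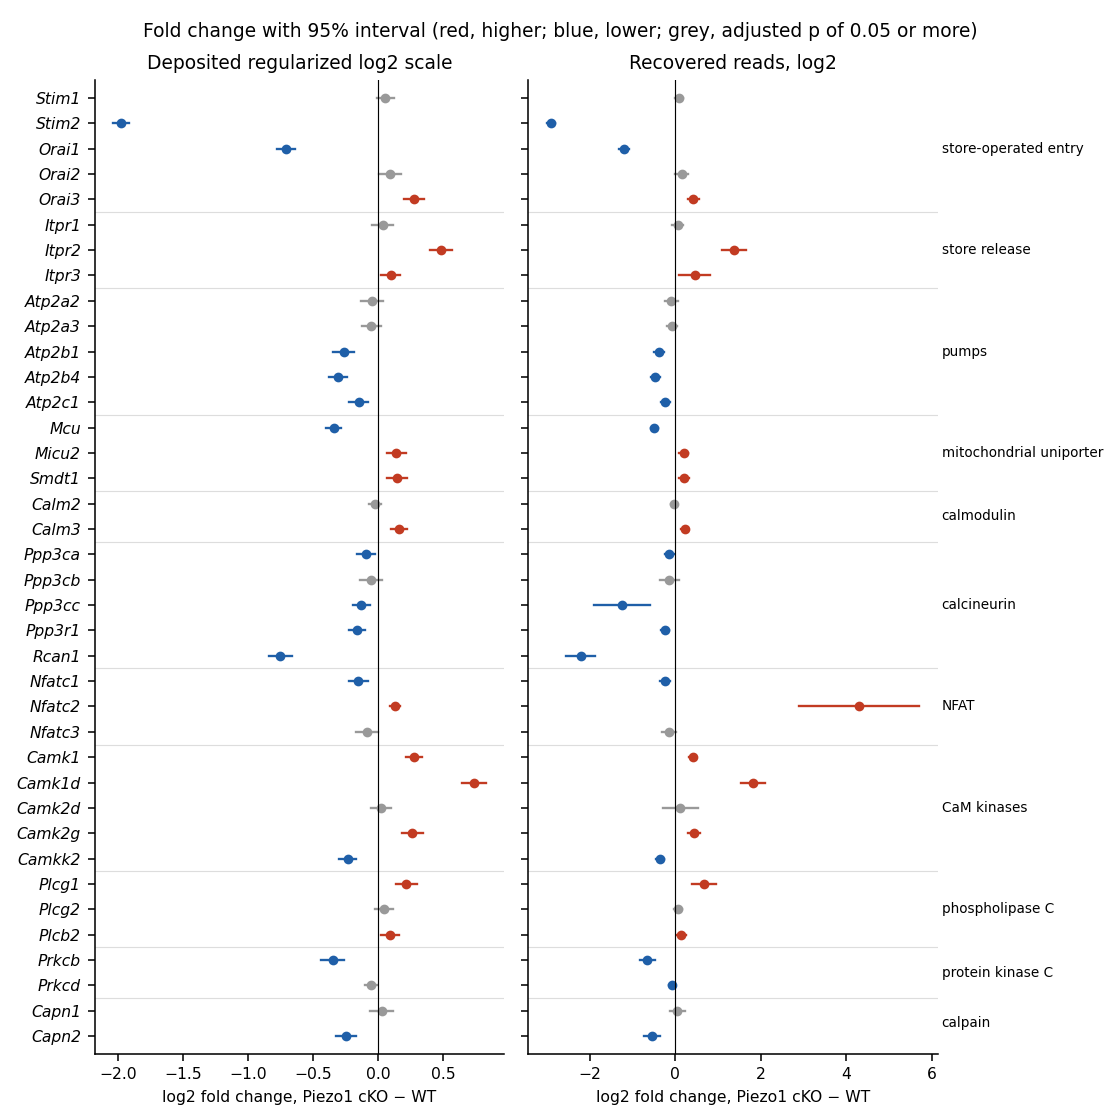
Log2 fold change (Piezo1 cKO minus WT) with its 95% interval for the 38 members tested, ordered by role, on the deposited scale (left) and on recovered reads (right); red is higher, blue lower and grey an adjusted p of 0.05 or more. Stim2 lies lowest on both scales at -1.98 and -2.90, and only Prkcd differs in its call between the scales.

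CaM kinase genes were higher in 3 of 5 tested and lower in 1, where 31.6% of all genes were higher and 31.4% lower. Camk1d had 83.4, 84.8 and 68.3 normalized reads in WT and 255, 304 and 273 in Piezo1 cKO libraries. It was the member with the largest rise on the deposited scale, 3.52-fold in reads, with a log2 fold change of 0.74 (95% interval 0.65 to 0.83, adjusted p = 4.16e-11, limma). Camk1, a kinase of the same family, had 1314, 1257 and 1307 reads in WT and 1677, 1714 and 1748 in Piezo1 cKO libraries (0.28, adjusted p = 1.92e-07, limma). Camkk2, an upstream kinase of CaMKI and AMPK, was lower in every library, from 1402, 1476 and 1551 to 1172, 1156 and 1150 reads (-0.23, adjusted p = 4.46e-06, limma). Camk2g, the main CaMKII gene in these cells, was higher by 0.26 (adjusted p = 1.23e-05, limma), while Camk2d overlapped (adjusted p = 0.588, limma).

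The remaining CaMKII genes moved in opposite directions. Camk2a went from 122, 135 and 121 to 367, 372 and 373 normalized reads (deposited log2 fold change 0.73, adjusted p = 5.02e-12, limma), and Camk2b from 179, 170 and 171 to 35.5, 31.2 and 15.3 (-0.75, adjusted p = 3.29e-11, limma). Both are best known from nerve cells. Of CaMKII reads per kb, Camk2a held 15% ± 0.31 in WT and 31.9% ± 1.49 in Piezo1 cKO LSCs, and Camk2b 16.9% ± 1.1 and 1.93% ± 0.77 (SD, n = 3), both without overlap (exact permutation p = 0.1, adjusted p = 0.168). Camkk1 was higher by 0.12 (adjusted p = 0.00613, limma), and of the list of other calmodulin kinases and inhibitors 3 were higher and 2 lower of 6 tested.

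Upstream, the 3 phospholipase C members were higher (2 genes, beside 31.6% of all genes) or did not pass. Plcg1, which acts below receptor tyrosine kinases, had 83.4, 69.6 and 85.6 normalized reads in WT and 120, 137 and 124 in Piezo1 cKO libraries (0.22, adjusted p = 0.000107, limma). Plcg2, its paralog in myeloid and B cells, held 98.4% of PLC gamma reads per kb in WT and 97.5% in Piezo1 cKO LSCs and had overlapping levels (adjusted p = 0.215, and 0.0463 without Piezo1 cKO replicate 3, limma). Plcb2, which acts below G protein-coupled receptors, was higher by 0.09 (adjusted p = 0.0236, limma), a call that was lost without WT replicate 2, WT replicate 3 or Piezo1 cKO replicate 3 (adjusted p = 0.079, 0.0672 and 0.147). Of 7 other phospholipase C genes tested, 2 were higher and 2 lower. Plcb4 went from 65.0, 90.8 and 78.9 to 33.4, 30.2 and 32.6 reads (-0.27, adjusted p = 8.72e-06), Plcl2, a phospholipase-like protein without enzyme activity, was lower by a smaller amount (-0.12, adjusted p = 0.0245), and Plcd3 was higher by 0.12 (adjusted p = 0.0114, limma).

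The protein kinase C and calpain members were lower (1 of 2 in each group, beside 31.4% of all genes) or did not pass. Prkcb, a classical PKC, had 440, 439 and 454 normalized reads in WT and 292, 311 and 250 in Piezo1 cKO libraries (-0.35, adjusted p = 7.15e-07, limma). Prkcd, a PKC that needs no calcium, had 4858, 4961 and 4904 reads in WT and 4794, 4641 and 4542 in Piezo1 cKO libraries. All 3 Piezo1 cKO values were lower, but by little, with an adjusted p of 0.0517 on the deposited scale and 0.0371 on recovered reads (limma), and 0.0155 on the deposited scale without Piezo1 cKO replicate 1. Prkcd held most of the reads per kb of the diacylglycerol-activated PKC genes, 89.7% ± 0.04 in WT and 93.0% ± 0.43 in Piezo1 cKO LSCs (SD, n = 3). Of 7 other PKC genes tested, 2 were higher and 3 lower. Prkch, which diacylglycerol activates without calcium, went from 255, 269 and 249 to 33.4, 44.8 and 37.6 reads (-0.96, adjusted p = 1.69e-13, limma). Prkci, an atypical PKC, went from 544, 475 and 492 to 148, 174 and 172 reads (-0.84, adjusted p = 3.7e-12, limma). Prkca, a classical PKC, went from 46.6, 52.5 and 52.9 to 199, 171 and 157 reads (0.58, adjusted p = 1.01e-09, limma).

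Capn2, the catalytic subunit of m-calpain, was lower, from 266, 255 and 263 to 178, 189 and 172 normalized reads (-0.25, adjusted p = 1.2e-05, limma), with 27.1% of its exon length shared with the antisense gene Gm37885. Capn1, the catalytic subunit of mu-calpain, overlapped (0.03, adjusted p = 0.582, limma). The small subunit that both need, Capns1, was lower by more, from 2307, 2287 and 2233 to 806, 886 and 802 reads (-0.99, adjusted p = 6.7e-15, limma). Cast, the calpain inhibitor calpastatin, was higher, from 1629, 1665 and 1735 to 2121, 2077 and 2051 reads (0.22, adjusted p = 2.97e-06, limma). Capn10 was lower by a smaller amount (-0.12, adjusted p = 0.0081, limma), and of the 7 other calpain genes tested 1 was higher and 2 were lower.

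Other store-operated entry and plasma membrane calcium genes were listed by name, with earlier results of these data known. Of 12 tested, 7 were higher and 4 lower, or 91.7% beside 63.0% of all genes. This was the highest share among 9 small lists of other genes, and whether it exceeds the background was not tested. P2rx4, an ATP-gated cation channel that passes calcium, had 2043, 2112 and 2123 normalized reads in WT and 4775, 4604 and 4785 in Piezo1 cKO libraries (0.84, adjusted p = 2.81e-15, limma). Its relative P2rx1 went from 84.4, 108 and 114 to 288, 268 and 251 reads (0.59, adjusted p = 1.43e-09, limma). Trpm2, a cation channel opened by ADP-ribose and oxidative stress, went from 37.8, 57.5 and 64.5 to 201, 200 and 232 reads (0.69, adjusted p = 3.57e-10, limma). These 3 were higher in every Piezo1 cKO library, where Stim2 and Orai1 were lower. Over all 86 other calcium genes in 9 lists, leaving out the NFAT-induced genes, 69 were tested and 27 were higher and 22 lower, or 71.0% beside 63.0% of all genes. With libraries centred on their median, 32 were higher and 16 lower, where all genes tilted the same way, with 6450 higher and 4214 lower.

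**Figure D5:**
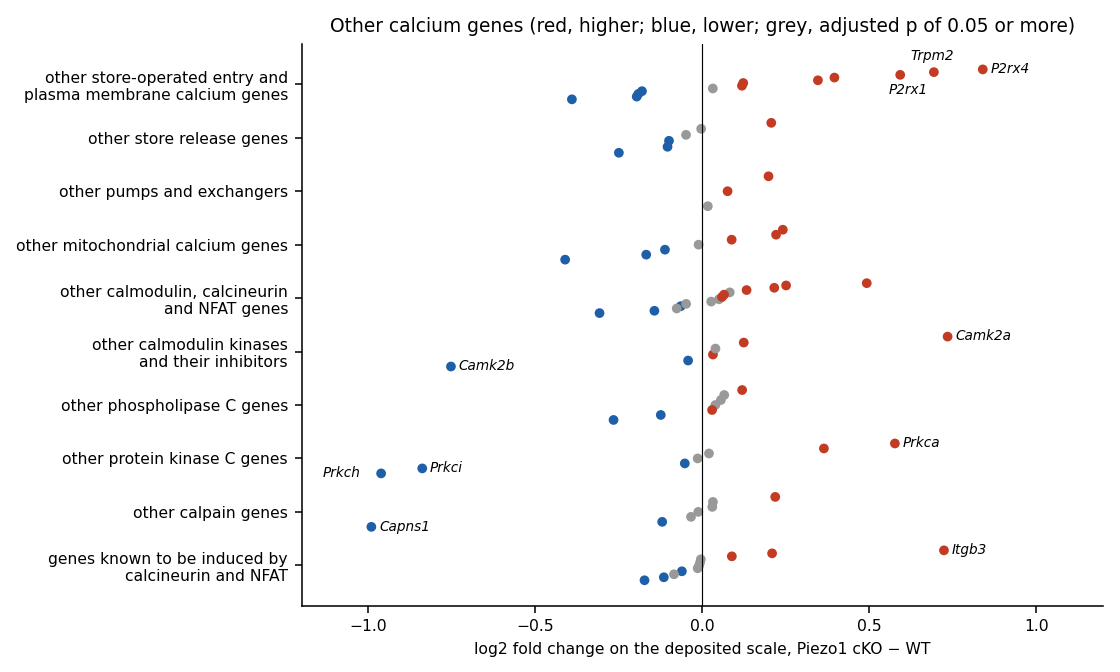
Log2 fold change on the deposited scale (x axis, Piezo1 cKO minus WT) of each tested gene of the 10 lists of other calcium genes (rows); red is higher, blue lower and grey an adjusted p of 0.05 or more. Capns1, Prkch, Prkci and Camk2b lie lowest and P2rx4, Camk2a, Itgb3 and Trpm2 highest.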

How the data were processed

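By the submitters' processing notes, the authors used fastp 0.20.1 for trimming, HISAT2 2.2.1 for mapping to GRCm38, featureCounts 2.0.1 for read counts per gene and DESeq2 1.28.1 for normalization. The deposited log2 values have the form of the regularized log, which the sources used here do not name. They were inverted to whole reads (95.0% of values within 0.1 of a whole number for means of 1 to 1000 reads and 72.8% for means above that), which was tested on simulated reads. The Smart-seq2 based libraries mark no strand and carry no molecular identifiers, so counting intervals cover counting error only.

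Deposited values of 16746 genes whose mean was 1 or more entered limma 3.58.1 in R 4.3.3 (lmFit and eBayes with a trend, no covariates), with p-values adjusted by Benjamini-Hochberg over all of them, and were called at an adjusted p under 0.05. Recovered reads of 17352 genes with at least 10 reads were fitted with limma-voom. Both fits were tested on simulated data with 200 changed genes, far fewer than were called here. Each library counted as 1 sample. Replicates of a group differed by more than sampling noise, which does not show whether they came from different mice. Gene lengths came from GENCODE M21, the union of all exons unless stated, and promoters from RefSeq. Alternatives were other filters, scaling, no trend, a replicate block, each library left out and recovered reads.

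The members and lists were chosen with earlier results of these data known. All members are named; values per library are given for members with an absolute log2 fold change over 0.5, or over 1 on recovered reads, and where a sentence turns on them. From each other list at most 3 called genes with the largest change on the deposited scale are named, leaving out some genes that are not reported here.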

Additional observations from a re-analysis of the deposited data

How the results depend on the processing

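Over 14 alternatives, 497 of 530 values of members kept their direction and their side of the threshold. Of the others, 29 changed the call and 4 turned the direction of a change near 0, and the cause was not tested. Of the 26 members called, 23 kept call and direction without any 1 library, and Itpr3, Ppp3ca and Plcb2 did not. Piezo1 stayed called and lower throughout. With libraries centred on their median, Calm2 went from -0.02 to 0.0011. Without 1 library, the log2 fold change ran from -0.0026 to 0.0669 for Itpr1, from -0.0012 to 0.0492 for Camk2d and from -0.0047 to 0.0625 for Capn1.
The recovered reads moved the counts past 1 log2 unit most, since they undo the shrinkage of the deposited values. With limma-voom, on library totals and with the replicate block, 4322, 4333 and 4364 genes passed in place of 137, of which 2212, 2255 and 2227 were higher and 2110, 2078 and 2137 lower. Of the members 7 passed in each, 3 higher and 4 lower, in place of 1.
Whether replicate numbers pair the libraries was not tested. The deviations of same-numbered libraries from their group means correlated by 0.195, 0.161 and 0.0696. Those of differently numbered libraries correlated by -0.17 to 0.0301. The highest correlation of WT replicates 1, 2 and 3 was each with their own number. The replicate block called 29 members and 11055 genes in place of 26 and 10556.
Shares within families that were close to equal turned without 1 library. Differences in percentage points ran from -1.24 to 1.06 for Atp2a2, from -1.24 to 0.838 for Atp2a3, from -0.184 to 0.376 for Ppp3cb, from -0.0082 to 1.94 for Nfatc3 and from -0.0419 to 0.00027 for Prkcq. With longest transcripts, Camk2g turned to 2.92. At 14112106 to 15483588 reads a library, genes such as Nfatc2 and Camk4 lay at the edge of detection in WT LSCs.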

Other observations

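Over the 11 families compared, 22 of 37 shares of reads per kb did not overlap between the groups. Shares within a family add up to a whole, so they are tied to each other. For levels of single genes on the deposited scale, an unlike measure, 66.6% of all genes tested did not overlap. No such background was computed for shares. The shares of the SERCA genes stayed within the replicate spread, with Atp2a3 at 77.5% ± 2.02 in WT and 77.4% ± 1.78 in Piezo1 cKO LSCs (SD, n = 3, exact permutation p = 1).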
